A study of Mus musculus with 18 samples.

Results

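The 32 genes described here encode enzymes of sterol and fatty acid synthesis and the proteins that set their expression. They were chosen by gene name in the deposited count table, which lists 55385 genes, and all 32 passed the filter on low counts that left 16041 genes for testing. They were grouped by role. The mevalonate arm holds 7 genes (Acat2, Hmgcs1, Mvk, Pmvk, Mvd, Idi1 and Fdps) and the steps from squalene to cholesterol 11 (Fdft1, Sqle, Lss, Cyp51, Tm7sf2, Msmo1, Nsdhl, Hsd17b7, Ebp, Sc5d and Dhcr7). Sterol sensing and transport holds 5 (Insig1, Srebf1, Srebf2, Scap and Stard4) and fatty acid synthesis 9 (Acly, Acaca, Fasn, Scd1, Scd2, Elovl5, Elovl6, Fads1 and Fads2).

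Polyadenylated RNA was sequenced from mouse gastruloids, which are aggregates of embryonic stem cells that pattern germ layers and an axis in culture. All 18 libraries came from wild-type cells of the 129/SVEV strain, and the gastruloids of a condition were pooled before extraction. Early gastruloids received CHIR, a GSK3 inhibitor that switches on Wnt/β-catenin signalling, from 24 to 48 h after aggregation, and control gastruloids received it from 48 to 72 h. Each arm was collected at 48, 72 and 96 h with 3 libraries per group. The early gastruloids of 48 h had therefore just finished their pulse while the controls of that age had received no CHIR. The early gastruloids of 72 h were one day past it while the controls of that age had just finished theirs. The early gastruloids of 96 h and the controls of 96 h had both been pulsed. Per the series' labels the comparison is of the timing of the Wnt pulse. Whether the 3 libraries of a condition stem from independent cultures is not stated, and the p-values therefore describe variation among these libraries, possibly technical.

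Cells make cholesterol from acetyl-CoA through mevalonate, farnesyl diphosphate, squalene and lanosterol, and they make saturated and unsaturated fatty acids from the same acetyl-CoA. The transcription factors SREBP1 and SREBP2, the products of Srebf1 and Srebf2, switch on most of these enzymes when membrane sterol is low: SCAP escorts them out of the endoplasmic reticulum, and INSIG1 holds them back when sterol is plentiful. In the embryo, cholesterol also modifies Hedgehog ligands, and an unsaturated fatty acid made by stearoyl-CoA desaturases is attached to Wnt ligands for secretion.

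SREBP factors bind promoters at the sterol regulatory element together with factors of the CCAAT box and the GC box, so those letters were searched on both strands in the 250 bases before each start in the RefSeq promoter table (GRCm38.p6). The table held 31 such windows of 25 of the 32 genes, among 32851 windows in all. CCAAT occurred in 20 of the 31 windows, 64.5%, against 33.8% of all windows, and GGGCGG in 22, 71.0%, against 32.7%. The E-box CACGTG occurred in 6, 19.4%, against 6.02%. The sterol element TCACNCCAC occurred in 1 window, 3.23%, against 1.05%. CTTTGAT, letters of the TCF/LEF site through which β-catenin acts, was added after values were seen and occurred in 0 of the 31, against 3.21%. By gene, CCAAT occurred in 19 and GGGCGG in 20 of the 25. Some genes had several windows, a few of which overlap, and the only Acaca window lay 65766 bases from the annotated start of the gene. The windows of all genes were not limited to genes that passed the filter on low counts, as the 32 did. A match is a description of letters only, and matches of different motifs can overlap.

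The promoters of Hmgcs1, Hsd17b7 and Lss are shown because Hmgcs1 holds the sterol element and the others had the lowest adjusted p among genes with a window in the comparison of early and control gastruloids at 96 h. The Ebp promoter was added after values were seen, as Ebp had the largest fold differences. Capitals mark the motif letters, on either strand, and each sequence reads 5′ to 3′ on the gene's strand. In Hmgcs1 (chr13:119690101-119690350, plus strand) TCACCCCAC begins 137 bases before the start. Hsd17b7 is at chr1:169969242-169969455, minus strand, Lss at chr10:76531355-76531587, plus strand, and Ebp at chrX:8193513-8193762, minus strand. For Hsd17b7 and Lss the last 36 and 17 bases of the window lie inside the gene in GENCODE release M21 and are left out.
Hmgcs1: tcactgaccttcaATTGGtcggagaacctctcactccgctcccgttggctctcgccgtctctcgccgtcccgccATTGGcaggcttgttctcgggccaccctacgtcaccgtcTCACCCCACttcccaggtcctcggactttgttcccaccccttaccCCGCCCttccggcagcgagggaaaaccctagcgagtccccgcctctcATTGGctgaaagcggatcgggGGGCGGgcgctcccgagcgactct
Hsd17b7: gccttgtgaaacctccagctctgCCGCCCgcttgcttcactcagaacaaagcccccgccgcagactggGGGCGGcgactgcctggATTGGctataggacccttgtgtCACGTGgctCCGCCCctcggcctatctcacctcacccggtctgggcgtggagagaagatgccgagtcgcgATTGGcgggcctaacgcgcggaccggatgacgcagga
Lss: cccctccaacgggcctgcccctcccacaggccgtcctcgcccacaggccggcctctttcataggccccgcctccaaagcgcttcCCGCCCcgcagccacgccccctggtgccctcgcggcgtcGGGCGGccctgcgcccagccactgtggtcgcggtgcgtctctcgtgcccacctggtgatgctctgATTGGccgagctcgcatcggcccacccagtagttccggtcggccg
Ebp: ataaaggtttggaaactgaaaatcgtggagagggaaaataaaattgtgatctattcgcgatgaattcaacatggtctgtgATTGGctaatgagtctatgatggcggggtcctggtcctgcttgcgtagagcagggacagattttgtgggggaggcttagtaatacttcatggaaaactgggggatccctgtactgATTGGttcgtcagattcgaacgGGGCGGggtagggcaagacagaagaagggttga
The printed stretch of Hmgcs1 holds 3 CCAAT and 2 GC boxes, that of Hsd17b7 holds 2 CCAAT, 3 GC boxes and 1 E-box, that of Lss 1 CCAAT and 2 GC boxes, and that of Ebp 2 CCAAT and 1 GC box.

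The libraries held 14841728 to 24536538 counts each, of which the 32 genes took 0.746% to 0.937%. The lowest count of any of the 32 in a library was 63, for Fdps. Each library lay nearest to a library of its own group. The control libraries numbered 3 stood apart from the other controls of their age: the chi-square per degree of freedom between their counts and those of the other 2 was 15.4 to 28.1, against 1.41 to 7.90 for every other replicate pair. At 48 h this library lay below both others at 24 of the 32 genes, against 38.9% of all genes, and at 96 h at 21, against 41.5%. At 72 h the control library numbered 1 lay below both others at 24, against 31.8% of all genes. Without the 3 control libraries numbered 3, an alternative chosen after seeing the data, all but 2 of 196 called differences of these genes were still called.

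The arms also differed in cell state markers, and in bulk RNA fewer cells of a type and less RNA per cell cannot be told apart. At 48 h all 7 naive pluripotency markers were higher in early gastruloids, where they summed to 546 to 598 CPM (CPM is the usual read count normalised to library size, here scaled by TMM), against 68.6 to 80.1 CPM in controls. All 5 formative epiblast markers were lower, with sums of 1809 to 1894 CPM in early and 5047 to 5412 CPM in control gastruloids. Primitive streak markers at 48 h (4 of 5 higher, 0 lower) summed to 88.6 to 109 CPM in early and 9.12 to 11.3 CPM in control gastruloids. At 72 h all 5 primitive streak markers were lower, at 80.7 to 85.3 CPM in early and 1009.9 to 1664 CPM in control gastruloids. Formative markers at 72 h (4 of 5 higher, 0 lower) summed to 2526 to 2566 CPM in early and 868 to 1198 CPM in control gastruloids, and naive markers (5 of 7 higher, 1 lower) to 197 to 210.2 CPM in early and 90.6 to 118 CPM in control gastruloids. At 96 h presomitic and somite markers (5 of 6 lower, 1 higher) summed to 7.43 to 10.5 CPM in early and 484 to 1019 CPM in control gastruloids. All 5 formative markers were higher at that age, at 1751 to 1878 CPM against 293 to 296 CPM. Definitive endoderm markers (4 of 5 higher, 1 lower) summed to 818 to 955 CPM in early and 92.0 to 185 CPM in control gastruloids, but Trh and Cldn6 held most of that sum. Trh averaged 733 CPM in early gastruloids of 96 h and already 949 CPM in those of 48 h. Among the defining genes, Sox17 and Cer1 averaged at most 3.28 and 1.88 CPM in every group. Foxa2 averaged 19.99 CPM in early and 2.97 CPM in control gastruloids of 96 h. Of 6 extraembryonic endoderm markers, 4 passed the filter on low counts: 3 were higher in early gastruloids at 72 h and all 4 at 96 h, when the 6 summed to 38.1 to 42.2 CPM in early and 9.85 to 23.7 CPM in control gastruloids, mostly from Dab2. Ttr, Afp and Apoa1 averaged at most 1.54 CPM in every group, and Ttr had 0 counts in early gastruloids of 48 h. Of 5 fibroblast markers, 4 passed the filter and all 4 were lower in early gastruloids at 48 h, when the 5 summed to 7.35 to 10.3 CPM in early and 23.9 to 28.6 CPM in control gastruloids. At 96 h, 2 of the 4 were higher and 1 lower in early gastruloids. The 5 then summed to 11.3 to 13.3 CPM in early and 14.8 to 39.1 CPM in control gastruloids. Col1a2 averaged 3.16 CPM in early and 24.2 CPM in control gastruloids of 96 h, while Thy1 averaged 8.24 and 5.33 CPM. Postn had 0 counts in both arms at 72 h and in early gastruloids at 48 h, and Dcn in controls of 96 h. The part of these shifts in the differences below was not tested.

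At 48 h the early gastruloids had lower levels of most of the mevalonate arm, and at 96 h the direction was opposite: sterol genes were mostly higher in early gastruloids. Of the 32 genes, 4 were higher and 16 lower in early gastruloids at 48 h (called at an adjusted p under 0.05 by edgeR's quasi-likelihood test, adjusted by Benjamini-Hochberg over all 16041 genes), where 43.7% of all genes tested were called, 23.0% higher and 20.7% lower. At 72 h 4 were higher and 13 lower, where 44.9% of all genes were called, 21.7% higher and 23.2% lower. At 96 h 16 were higher and 7 lower, where 59.1% were called, 29.5% higher and 29.6% lower. The median log2 fold change (early over control) of the 32 genes was -0.16 at 48 h, -0.08 at 72 h and 0.18 at 96 h, and that of all genes tested was 0.02, -0.02 and -0.01. On the authors' FPKM values (fragments normalised to transcript length and library size), fitted as log2(FPKM + 1) with limma, the splits were 3 higher and 18 lower at 48 h, 3 and 13 at 72 h, and 18 and 7 at 96 h. Of all genes on that scale, 18.3% were higher and 25.5% lower at 48 h, 17.3% and 28.4% at 72 h, and 31.8% and 28.1% at 96 h.

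**Figure D1:**
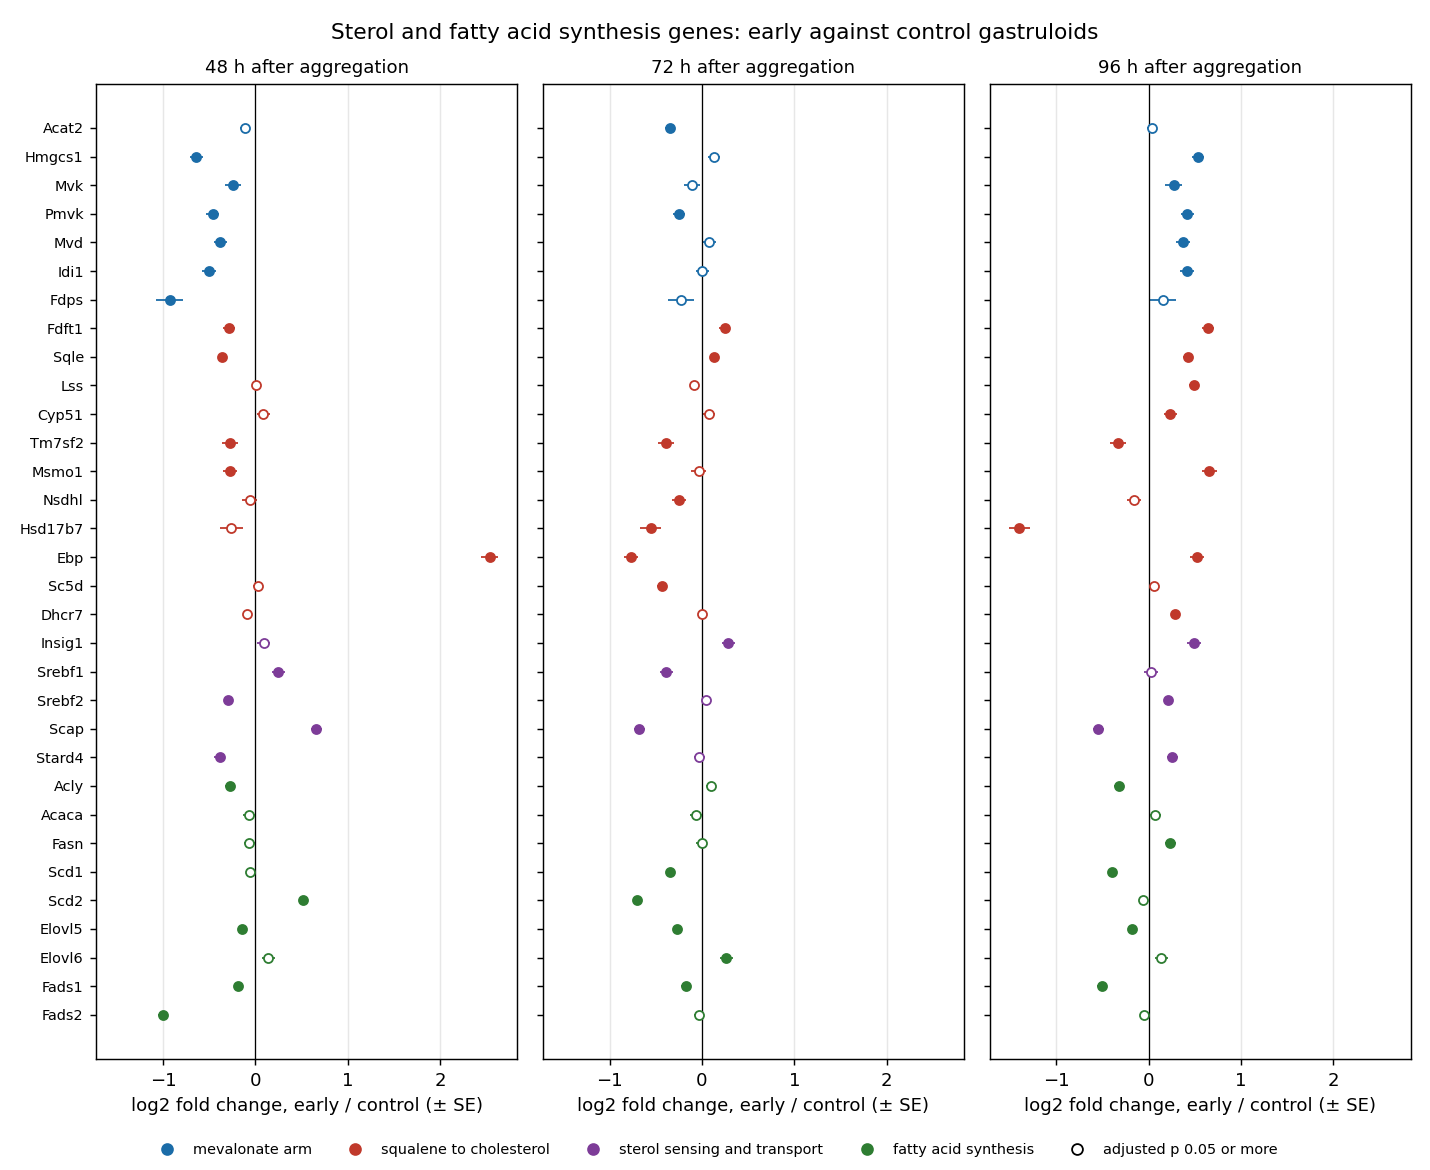
Log2 fold change of early over control gastruloids (x axis, ± SE, n = 3 libraries per group) for each of the 32 genes (rows) at 48, 72 and 96 h; colours give the role and open points an adjusted p of 0.05 or more. The mevalonate arm lies left of 0 at 48 h and at or right of 0 at 96 h, Ebp stands at 2.54 at 48 h and at -0.77 at 72 h, and Hsd17b7 at -1.40 at 96 h.

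At 48 h, 6 of the 7 mevalonate genes were lower in early gastruloids and 0 were higher. Hmgcs1, which makes HMG-CoA, had 594, 624 and 567 CPM in early libraries, against 938, 979.8 and 860.5 CPM in controls. The libraries of the arms lay far apart, with a log2 fold change of -0.64 ± 0.07 (SE; adjusted p = 4.52e-07). Pmvk, the second kinase of the arm, had 35.8, 37.1 and 37.1 CPM in early and 51.3, 52.2 and 48.1 CPM in control libraries (-0.46 ± 0.07, adjusted p = 1.88e-05). Every early library was below every control library. Idi1, which isomerises isopentenyl diphosphate, Mvd, the decarboxylase, and Mvk, mevalonate kinase, were lower by log2 fold changes of -0.50, -0.38 and -0.24. For Mvk the libraries of the arms overlapped, and the call was lost on leaving out any library of the comparison other than the third control (adjusted p = 0.0586 to 0.202). Without that control its log2 fold change was -0.36. Fdps, which makes farnesyl diphosphate, was also lower (-0.93 ± 0.14), on 63 to 95 counts per early and 112 to 179 counts per control library. Acat2, the thiolase that opens the pathway, averaged 91.9 ± 2.48 CPM in early and 99.1 ± 4.90 CPM in control gastruloids (SD, n = 3 each) and did not pass the test. The 7 genes summed to 841 to 910.5 CPM in early libraries and 1178 to 1354 CPM in controls, and Hmgcs1 held most of that sum.

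Among the 11 genes from squalene to cholesterol, 1 was higher and 4 were lower in early gastruloids at 48 h. Ebp, the sterol isomerase late in the pathway, had 34.9, 31.98 and 34.8 CPM in early libraries, against 4.99, 5.84 and 6.80 CPM in controls. These were 521 to 721 counts per early and 98 to 118 counts per control library. The early libraries lay several times above every control, at a 5.81-fold difference (log2 2.54 ± 0.09, adjusted p = 2.51e-13). Sqle, squalene epoxidase, went the other way, with 222, 222 and 218 CPM in early and 288, 295 and 265 CPM in control libraries (-0.36 ± 0.04, adjusted p = 3.05e-06). Its early libraries were nearly level and all below the controls. Fdft1, squalene synthase, Msmo1, a sterol methyl oxidase, and Tm7sf2, a sterol reductase, had log2 fold changes of -0.29, -0.27 and -0.28. The Tm7sf2 call was lost on FPKM (adjusted p = 0.376), and the Msmo1 call without the second control library (adjusted p = 0.0596). The other 6 genes, Lss, Cyp51, Nsdhl, Hsd17b7, Sc5d and Dhcr7, had log2 fold changes from -0.26 to 0.09 and did not pass the test.

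Of the 5 genes of sterol sensing and transport, 2 were higher and 2 lower in early gastruloids at 48 h. Scap, the SREBP escort, had 96.3, 89.6 and 97.5 CPM in early libraries, against 59.3, 59.0 and 60.9 CPM in controls (0.66 ± 0.06, adjusted p = 8.49e-08). Srebf2, the SREBP mainly tied to sterol genes, had 331, 332 and 331 CPM in early and 413, 412 and 396 CPM in control libraries (-0.30 ± 0.04, adjusted p = 4.10e-06). Both genes separated the arms fully, in opposite directions. Srebf1, the SREBP mainly tied to fatty acid genes, had 127, 123 and 122 CPM in early and 108, 110.4 and 94.4 CPM in control libraries (0.25 ± 0.07, adjusted p = 0.00985). That call was lost on FPKM (adjusted p = 0.455) and without the third control library (adjusted p = 0.0626). Stard4, which carries cholesterol between membranes, was lower (-0.39 ± 0.06), and Insig1 averaged 157 ± 4.77 CPM in early and 147 ± 11.4 CPM in control gastruloids and did not pass the test.

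Among the 9 fatty acid genes, 1 was higher and 4 were lower in early gastruloids at 48 h. Fads2, the desaturase that opens polyunsaturated fatty acid synthesis, had 179, 179.8 and 183 CPM in early libraries, against 373, 368 and 348 CPM in controls. The early libraries held 0.498 times the control level (log2 -1.01 ± 0.05, adjusted p = 1.48e-11). Scd2, a stearoyl-CoA desaturase and the most abundant of the 32 genes per length (mean 334 FPKM over the 18 libraries), had 1864, 1845 and 1879 CPM in early and 1282, 1295 and 1331 CPM in control libraries (0.52 ± 0.04, adjusted p = 9.64e-09). The arms were apart in both genes. Scd1, of the same family as Scd2, averaged 266 ± 7.80 CPM in early and 277 ± 5.62 CPM in control gastruloids and did not pass the test. Acly, which makes cytosolic acetyl-CoA, Fads1, another polyunsaturated desaturase, and the elongase Elovl5 were lower by log2 fold changes of -0.28, -0.18 and -0.14, and the Elovl5 call was lost in 3 of 16 alternatives. Fasn, fatty acid synthase, and Acaca, acetyl-CoA carboxylase, had log2 fold changes of -0.07 each and did not pass the test.

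**Figure D2:**
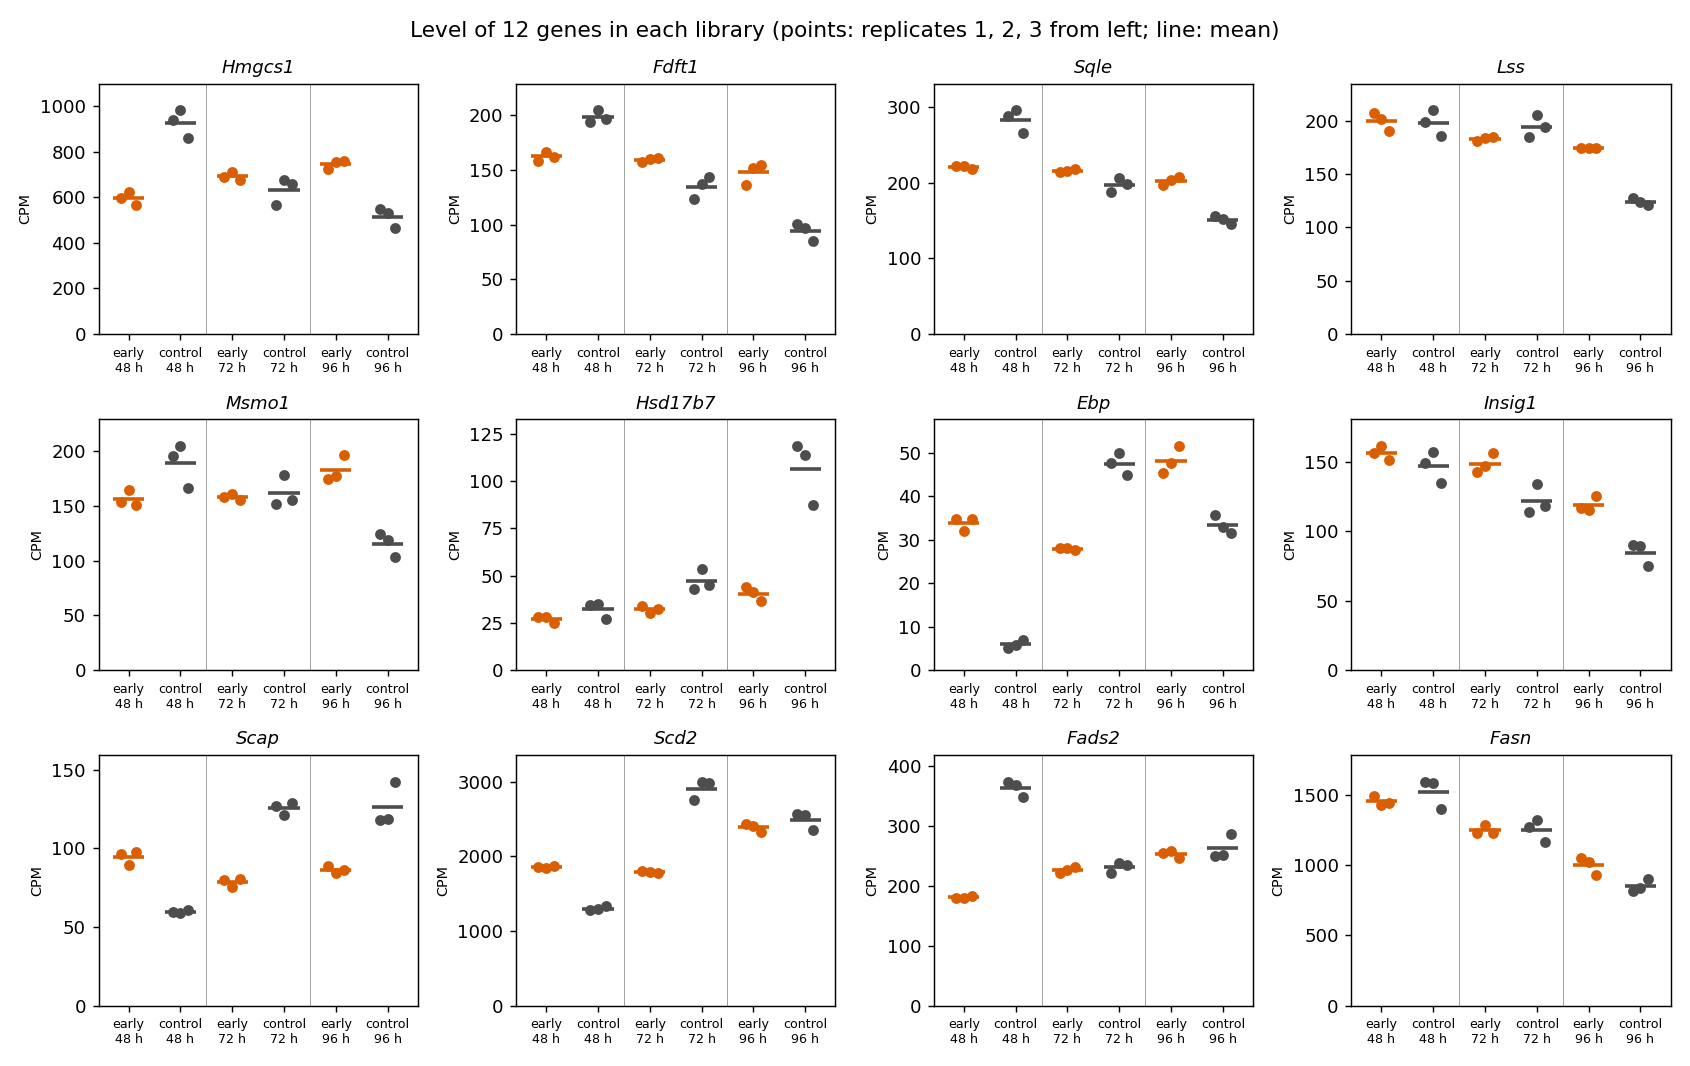
CPM of 12 of the genes in each library (y axes from 0), with early libraries in orange and controls in grey at 48, 72 and 96 h; points are replicates 1 to 3 and lines are group means. Control Ebp is lowest at 48 h (5.87 CPM), control Hsd17b7 is highest at 96 h (107 CPM), and the sterol genes Hmgcs1, Fdft1 and Sqle step down with age in the controls.

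At 72 h, when the controls had just finished their pulse, the lower genes were 5 of the 11 squalene-to-cholesterol genes, 4 of the 9 fatty acid genes, 2 of the 5 sensing genes and 2 of the 7 mevalonate genes. Scd2 had 1807, 1791 and 1779 CPM in early libraries, against 2758, 2996 and 2978 CPM in controls (-0.70 ± 0.04, adjusted p = 3.27e-10). Scap had 79.6, 75.4 and 80.5 CPM in early and 127, 121 and 129 CPM in control libraries (-0.68 ± 0.06, adjusted p = 6.49e-08). Ebp had 28.1, 28.2 and 27.6 CPM in early and 47.8, 49.98 and 44.9 CPM in control libraries (-0.77 ± 0.08, adjusted p = 2.49e-07). All 3 genes had been higher in early gastruloids at 48 h, and at 72 h each early library was below each control. Sc5d, the sterol desaturase after Ebp, averaged 43.2 ± 1.05 CPM in early and 58.4 ± 3.48 CPM in control gastruloids (-0.43 ± 0.06, adjusted p = 5.92e-06). Scd1 averaged 217 ± 5.997 CPM in early and 276 ± 13.7 CPM in control gastruloids (-0.35 ± 0.05, adjusted p = 6.69e-06). Acat2 (-0.35 ± 0.05, adjusted p = 3.22e-05), Elovl5 (-0.27 ± 0.04, adjusted p = 3.78e-05) and Srebf1 (-0.39 ± 0.07, adjusted p = 0.000269) were also lower.

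The genes higher in early gastruloids at 72 h were Fdft1, Sqle, Insig1 and the elongase Elovl6. Fdft1 had 157, 159.7 and 161 CPM in early libraries, against 123, 137 and 143 CPM in controls (0.25 ± 0.06, adjusted p = 0.00366). Insig1 had 143, 147 and 156 CPM in early and 114, 134 and 118 CPM in control libraries (0.29 ± 0.07, adjusted p = 0.00402). The early libraries of both genes lay above every control by a small margin. Elovl6 averaged 267 ± 1.84 CPM in early and 223 ± 21.6 CPM in control gastruloids (0.26 ± 0.07, adjusted p = 0.00547), a call lost on log2(FPKM + 1) over all genes (adjusted p = 0.0570). Sqle differed by 0.13 ± 0.04 (adjusted p = 0.0255), and that call was lost in 6 of 16 alternatives. The remaining called genes, Hsd17b7, Tm7sf2, Pmvk, Nsdhl and Fads1, were lower by log2 fold changes from -0.56 to -0.17, and Nsdhl and Fads1 each lost the call in 3 of 16 alternatives. Hmgcs1, Mvd, Idi1 and Stard4, all lower in early gastruloids at 48 h, had log2 fold changes from -0.03 to 0.13 at 72 h and did not pass the test.

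At 96 h, 15 of the 23 sterol genes were higher in early gastruloids and 3 lower, while of the 9 fatty acid genes 1 was higher and 4 were lower. In the mevalonate arm 5 of 7 were higher and 0 lower. Hmgcs1 had 723, 756 and 760.5 CPM in early libraries, against 549, 532 and 464 CPM in controls (0.53 ± 0.07, adjusted p = 2.15e-06). Pmvk, Idi1, Mvd and Mvk were higher by log2 fold changes of 0.42, 0.42, 0.37 and 0.27, and the Mvk call was lost without the third early library (adjusted p = 0.0655). The 7 genes summed to 1046 to 1098 CPM in early libraries and 724 to 841 CPM in controls, so the arms did not overlap. Hmgcs1 held most of that sum, averaging 746 CPM in early and 515 CPM in control gastruloids. Fdps, whose counts and FPKM differed widely as given below, averaged only 5.69 and 5.07 CPM.

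From squalene onward 7 of 11 genes were higher in early gastruloids at 96 h and 2 lower. Lss, which closes the sterol rings, had 174, 175 and 175 CPM in early libraries, against 128, 124 and 121 CPM in controls (0.49 ± 0.05, adjusted p = 7.65e-08). Fdft1 had 136, 152 and 155 CPM in early and 101, 97.1 and 85.0 CPM in control libraries (0.64 ± 0.06, adjusted p = 8.49e-08). Sqle had 197, 204 and 207 CPM in early and 156, 152 and 146 CPM in control libraries (0.42 ± 0.04, adjusted p = 2.47e-07). In each of these 3 consecutive enzymes all early libraries lay above all controls. Msmo1 averaged 183 ± 11.9 CPM in early and 116 ± 11.03 CPM in control gastruloids (0.66 ± 0.08, adjusted p = 1.14e-06). Ebp, Dhcr7, which completes cholesterol in one branch, and the lanosterol demethylase Cyp51 were higher by 0.53, 0.29 and 0.24 on the log2 scale.

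Hsd17b7, the keto reductase of sterol demethylation, moved against them. It had 43.8, 41.3 and 36.3 CPM in early libraries, against 119, 114 and 87.6 CPM in controls, 0.379 times the control level (-1.40 ± 0.11, adjusted p = 6.40e-09). Every control library held more than any early library, the third control being the lowest of the controls. Tm7sf2 was lower too, with 34.5, 36.5 and 39.8 CPM in early and 43.9, 41.2 and 54.9 CPM in control libraries (-0.33 ± 0.09, adjusted p = 0.00287). Its difference was -0.20 without the third control library. Nsdhl, whose enzyme acts with those of Msmo1 and Hsd17b7, averaged 56.7 ± 2.30 CPM in early and 63.3 ± 4.83 CPM in control gastruloids and did not pass the test, nor did Sc5d. The sum of the presomitic markers given above was, like Hsd17b7, highest in control gastruloids of 96 h, where the third library was lowest in both. At 48 h the mean sum was 20.7 CPM in early and 39.0 CPM in control gastruloids. Hsd17b7 averaged 27.0 CPM in early and 32.2 CPM in control gastruloids of that age and was not called. In controls from 48 to 72 h the mean presomitic sum fell from 39.0 to 12.8 CPM, while Hsd17b7 rose from 32.2 to 47.2 CPM. In early gastruloids from 72 to 96 h the sum fell from 20.2 to 9.04 CPM, while Hsd17b7 averaged 32.2 and then 40.5 CPM. Outside controls of 96 h, Dll1 and Tcf15 held most of the sum. Tbx6, a less abundant marker, averaged 0.84 CPM in controls of 48 h and 1.59 CPM in those of 72 h. The part of these markers in the Hsd17b7 difference was not tested.

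Of the sensing genes, Insig1 (0.49 ± 0.07), Srebf2 (0.21 ± 0.04) and Stard4 (0.26 ± 0.06) were higher in early gastruloids at 96 h, with adjusted p of 1.74e-05, 8.84e-05 and 0.0015. Insig1 had 117, 115 and 126 CPM in early libraries, against 89.9, 89.5 and 74.7 CPM in controls. Scap was lower, with 88.7, 84.4 and 86.0 CPM in early and 118, 118 and 142 CPM in control libraries (-0.54 ± 0.06, adjusted p = 3.94e-07). Both genes separated the arms. Srebf1 averaged 126 ± 2.41 CPM in early and 124 ± 16.0 CPM in control gastruloids and did not pass the test.

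Among the fatty acid genes at 96 h, Fads1 had 127, 124 and 127 CPM in early libraries, against 172, 185 and 183 CPM in controls (-0.51 ± 0.05, adjusted p = 9.57e-08). Scd1 had 225, 242 and 223 CPM in early and 305, 312 and 290.0 CPM in control libraries (-0.39 ± 0.05, adjusted p = 6.22e-07). Acly (-0.32 ± 0.05, adjusted p = 4.36e-05) and Elovl5 (-0.18 ± 0.04, adjusted p = 0.00121) were lower as well. Fasn was the one fatty acid gene that was higher, at 1000.1 ± 61.1 CPM in early and 849 ± 43.5 CPM in control gastruloids (0.24 ± 0.06, adjusted p = 0.00201). Scd2, Fads2, Elovl6 and Acaca had log2 fold changes from -0.06 to 0.14 and did not pass the test.

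**Figure D3:**
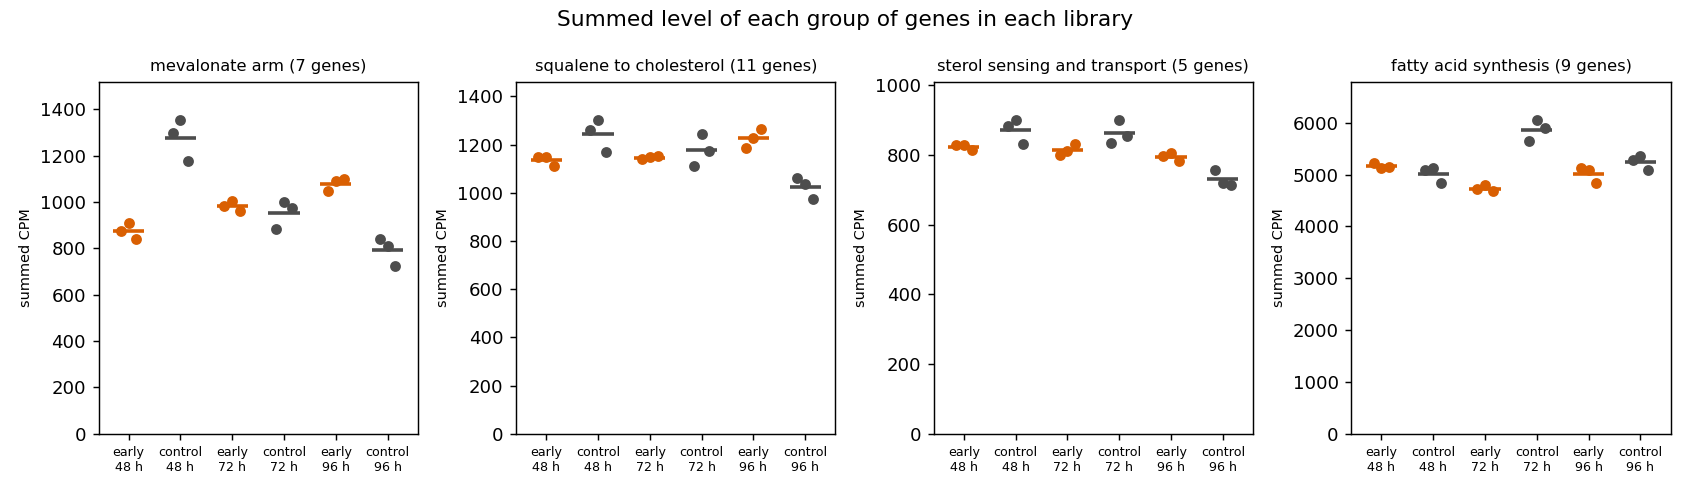
Summed CPM of the genes of each role in each library (y axes from 0), early in orange and control in grey at 48, 72 and 96 h, with lines for group means. The mevalonate sum of early gastruloids (875, 982 and 1079 CPM with age) steps up while that of the controls (1277, 953 and 792 CPM) steps down, and a few abundant genes weigh most in each sum.

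The difference between the arms itself changed with age, tested as an interaction over libraries that the ages do not share. Between 48 and 72 h it moved up for 10 of the 32 genes and down for 7, where 46.4% of all genes tested moved, 22.8% up and 23.6% down. The 10 were Fads2, Hmgcs1, Sqle, Srebf2, Fdft1, Acly, Idi1, Mvd, Stard4 and Fdps, and the 7 were Ebp, Scd2, Scap, Srebf1, Sc5d, Scd1 and Acat2. Without the 3 control libraries numbered 3 the counts were 15 up and 7 down. Between 72 and 96 h it moved up for 18 genes and down for 3, where 33.6% of all genes moved, 17.8% up and 15.7% down. Of the 23 sterol genes 16 moved up and 1, Hsd17b7 (-0.85 ± 0.16, adjusted p = 0.000539), moved down. Some upward calls were fragile: those of Mvd, Fasn, Srebf2 and Mvk were lost in 12, 10, 7 and 4 of 22 alternatives. Those of Dhcr7 and Stard4 were lost in 1 each. The median of the 32 interaction terms was 0.29, against 0.02 for all genes tested. Among the largest were Ebp (1.29 ± 0.11), Msmo1 (0.70 ± 0.11), Pmvk (0.67 ± 0.09), Scd2 (0.64 ± 0.06) and Lss (0.58 ± 0.07), with adjusted p from 4.50e-08 to 0.000103. Acly and Fads1 moved down, by terms of -0.42 and -0.33.

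Within the control arm, the 48 to 72 h step spans the pulse. Comparing 72 h with 48 h, 9 of the 32 genes rose and 15 fell, where 61.4% of all genes changed, 31.1% up and 30.3% down. This comparison shares its 48 h libraries with that of early against control at 48 h, and its 72 h libraries with that at 72 h. Ebp averaged 47.5 ± 2.55 CPM at 72 h and 5.87 ± 0.903 CPM at 48 h, an 8.15-fold difference (3.03 ± 0.09, adjusted p = 7.95e-15). Scd2 averaged 2910.5 ± 133 CPM at 72 h and 1303 ± 25.2 CPM at 48 h (1.16 ± 0.04, adjusted p = 7.57e-14). Scap averaged 126 ± 3.99 CPM at 72 h and 59.7 ± 1.02 CPM at 48 h (1.07 ± 0.06, adjusted p = 5.27e-11). These 3 genes, and also Srebf1, were above their level in untreated controls at the end of either pulse. Fads2 was among the genes below that level at the end of either pulse, as were Hmgcs1, Mvd, Idi1, Sqle, Fdft1 and Acly. Neither pattern was limited to the pulse ends. Of all 6 group means, that of the untreated controls was the lowest for Ebp, Scd2, Scap and Srebf1. It was the highest for Fads2 and the genes named with it. The share of all genes with either pattern was not computed. Fads2 averaged 231 ± 8.93 CPM in controls at 72 h and 363 ± 12.9 CPM at 48 h (-0.65 ± 0.05, adjusted p = 1.87e-09). Sc5d (0.54 ± 0.06, adjusted p = 1.49e-07) rose, and Sqle (-0.52 ± 0.04, adjusted p = 1.22e-08), Acly (-0.52 ± 0.05, adjusted p = 9.40e-08) and Fdft1 (-0.56 ± 0.06, adjusted p = 3.62e-07) fell. In the mevalonate arm Hmgcs1, Mvd and Idi1 fell, by log2 fold changes from -0.55 to -0.38, and 0 genes rose. Fdps passed narrowly (-0.33, adjusted p = 0.0478), and that call was lost in 8 of 16 alternatives, with the replicate block among them (adjusted p = 0.0590). The other genes that rose were Srebf1 (0.57), Hsd17b7 (0.55), Nsdhl (0.42), Tm7sf2 (0.31) and Dhcr7 (0.12), the last of which lost its call in 9 of 16 alternatives (adjusted p = 0.0565 to 0.174). On FPKM 13 genes rose and 14 fell in this step, on a scale where 39.1% of all genes rose and 24.0% fell.

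From 72 to 96 h, 7 of the 32 genes rose in controls and 17 fell, where 54.9% of all genes changed, 27.5% up and 27.4% down, and 14 of the 17 were sterol genes. Lss averaged 124 ± 3.23 CPM at 96 h and 195 ± 10.2 CPM at 72 h (-0.65 ± 0.05, adjusted p = 2.60e-09). Fasn averaged 849 ± 43.5 CPM at 96 h and 1251 ± 79.5 CPM at 72 h (-0.56 ± 0.06, adjusted p = 2.64e-07). Both were lower in every 96 h library. Hsd17b7 rose, to 107 ± 16.7 CPM at 96 h against 47.2 ± 5.32 CPM at 72 h (1.18 ± 0.11, adjusted p = 7.27e-08). Fads1 (0.39 ± 0.05, adjusted p = 3.57e-06), Elovl5 (0.29 ± 0.04, adjusted p = 9.41e-06), Nsdhl (0.31), Acly (0.29), Fads2 (0.18) and Scd1 (0.13) rose as well. Without the third control library of 96 h the Fads2 value was 0.12. Sqle (-0.38 ± 0.04), Fdft1 (-0.51 ± 0.06) and Insig1 (-0.53 ± 0.07) fell, with adjusted p from 1.04e-06 to 9.73e-06. Without the second control library of 72 h, the value of Stard4 was -0.15, against -0.23 with it, and that of Idi1 was -0.17, against -0.26, and no longer passed the test (adjusted p = 0.0721). The Scd1 call was lost in 3 of 16 alternatives and the Fads2 call in 1. By group means, 13 of the 32 genes were highest in controls of 48 h and 13 were lowest in controls of 96 h. The share of all genes with these extremes was not computed, so the counts cannot be read as particular to these genes.

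Within the early arm, comparing 72 h with 48 h, 6 genes rose and 9 fell, where 42.6% of all genes changed, 20.7% up and 21.9% down. Fads2 averaged 226 ± 4.71 CPM at 72 h and 181 ± 2.08 CPM at 48 h (0.32 ± 0.05, adjusted p = 5.01e-05), and Scd1 averaged 217 ± 5.997 CPM at 72 h and 266 ± 7.80 CPM at 48 h (-0.29 ± 0.05, adjusted p = 6.01e-05). Dhcr7, Mvk, Nsdhl, Hmgcs1 and Pmvk rose by 0.21 to 0.25, and Scap, Ebp, Elovl6, Acaca, Fasn, Acat2, Acly and Lss fell by 0.13 to 0.28 on the log2 scale. The Mvk call was lost without any 1 of the 6 libraries (adjusted p = 0.0505 to 0.0871), that of Nsdhl without any of 4, and those of Hmgcs1 and Pmvk without either of 2. The split depended on the scale: on FPKM 13 genes rose and only Scd1 fell, where 28.7% of all genes rose and 12.1% fell. From 72 to 96 h, 11 rose and 4 fell, where 35.3% of all genes changed, 17.6% in each direction, and on FPKM 14 rose and 4 fell, where 25.4% and 11.7% did. Ebp averaged 48.3 ± 3.08 CPM at 96 h and 28.0 ± 0.344 CPM at 72 h (0.79 ± 0.08, adjusted p = 6.13e-07). Scd2 averaged 2389 ± 51.9 CPM at 96 h and 1792 ± 14.1 CPM at 72 h (0.41 ± 0.04, adjusted p = 7.89e-07). Elovl5 (0.39 ± 0.04, adjusted p = 1.73e-06), Sc5d (0.34 ± 0.06, adjusted p = 0.000169) and Acat2 (0.29 ± 0.05, adjusted p = 0.000286) also rose, and Fasn, Acaca, Insig1 and Elovl6 fell by 0.28 to 0.32.

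With the arms aligned to the pulse, the early gastruloids of 48 h were set against the controls of 72 h, both at the end of their pulse. Of the 32 genes 7 were higher in the early gastruloids and 16 lower, where 61.1% of all genes were called, 29.5% higher and 31.7% lower. Scd2 (-0.64 ± 0.04, adjusted p = 2.81e-10), Sc5d (-0.51 ± 0.06, adjusted p = 3.43e-07), Fads2 (-0.35 ± 0.05, adjusted p = 6.04e-06) and Hsd17b7 (-0.81 ± 0.12, adjusted p = 1.17e-05) were lower in early gastruloids. Elovl6 was higher, at 319 ± 7.27 CPM in early gastruloids of 48 h and 223 ± 21.6 CPM in controls of 72 h (0.52 ± 0.07, adjusted p = 4.51e-06). Insig1, Fdft1, Acly, Fasn, Acaca and Sqle were higher by 0.36 to 0.16, and the calls of all of these but Insig1 were lost on FPKM. On FPKM 2 genes were higher and 24 lower, on a scale where 18.9% of all genes were higher and 43.8% lower. The median of all genes was -0.13 on FPKM and -0.02 on counts, a shift of -0.11. The members' median was -0.25 on FPKM and -0.15 on counts.

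One day after each pulse, the early gastruloids of 72 h were set against the controls of 96 h. Here 14 of the 32 genes were higher in the early gastruloids and 13 lower, where 69.7% of all genes were called, 34.3% higher and 35.4% lower. Hsd17b7 averaged 32.2 ± 1.88 CPM in early gastruloids of 72 h and 107 ± 16.7 CPM in controls of 96 h (-1.73 ± 0.11, adjusted p = 2.01e-10). Insig1 averaged 149 ± 6.94 CPM in early gastruloids and 84.7 ± 8.64 CPM in those controls (0.81 ± 0.07, adjusted p = 1.78e-08). Fdft1 (0.75 ± 0.06), Lss (0.56 ± 0.05), Sqle (0.51 ± 0.04), Fasn (0.56 ± 0.06) and Hmgcs1 (0.43 ± 0.07) were higher, with adjusted p from 5.11e-09 to 1.97e-05. Elovl5 (-0.57 ± 0.04), Scd2 (-0.48 ± 0.04), Scap (-0.68 ± 0.06), Fads1 (-0.56 ± 0.05) and Scd1 (-0.48 ± 0.05) were lower, with adjusted p from 8.39e-10 to 2.71e-08. Without the third control library of 96 h the difference of Fads2 was -0.14, against -0.21 with it.

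Other lipid genes were read from the same fit, in which 43.7%, 44.9% and 59.1% of all genes were called at 48, 72 and 96 h. Of 8 genes of LXR signalling, sterol efflux and storage, 2 were higher and 1 lower in early gastruloids at 48 h, 3 and 3 at 72 h, and 3 and 1 at 96 h. Abcg1, a sterol exporter switched on by LXR, averaged 10.7 CPM in early and 68.5 CPM in control gastruloids at 48 h (-2.68 ± 0.09, adjusted p = 7.02e-14). At 96 h it averaged 7.97 CPM in early and 1.64 CPM in control gastruloids (2.25 ± 0.13, adjusted p = 4.91e-11). Soat1, which esterifies cholesterol for storage, averaged 346 CPM in early and 208 CPM in control gastruloids at 96 h (0.73 ± 0.05, adjusted p = 2.96e-10), and Mylip, which marks lipoprotein receptors for degradation, 3.27 CPM in early and 11.04 CPM in controls (-1.77 ± 0.18, adjusted p = 1.66e-07). Of 7 other genes of SREBP processing and sterol sensing, 3 were higher and 0 lower at 48 h, 0 and 4 at 72 h, and 0 and 3 at 96 h. Erlin1, which takes part in sterol-regulated degradation, differed by 0.75 ± 0.09 at 48 h (adjusted p = 2.06e-06). Of 9 genes of the non-sterol isoprenoid branch, 3 were higher and 1 lower at 48 h, 2 and 3 at 72 h, and 4 and 3 at 96 h. Fntb, a subunit of farnesyltransferase, differed by 0.81 ± 0.05 at 48 h (adjusted p = 2.18e-10), and Coq2, of ubiquinone synthesis, by -0.64 ± 0.07 at 96 h (adjusted p = 3.58e-07).

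Of 14 other fatty acid synthesis genes, 4 were higher and 5 lower in early gastruloids at 48 h, 4 and 5 at 72 h, and 6 and 4 at 96 h. The acyl-CoA synthetases Acsl4 and Acsl3 crossed over: Acsl4 differed by -0.87 ± 0.07, 0.94 ± 0.07 and 0.96 ± 0.07 at 48, 72 and 96 h, and Acsl3 by 0.60 ± 0.07, -0.82 ± 0.07 and 0.59 ± 0.07, with adjusted p of at most 1.81e-06. Elovl2, an elongase of polyunsaturated fatty acids, averaged 14.1 CPM in early and 46.9 CPM in control gastruloids at 96 h (-1.74 ± 0.12, adjusted p = 1.40e-09). Of 16 fatty acid oxidation genes, 3 were higher and 1 lower at 48 h, 1 and 3 at 72 h, and 4 and 3 at 96 h, which is 25%, 25% and 43.8% called. Cpt1a, which carries fatty acids to oxidation, averaged 49.2 CPM in early and 14.7 CPM in control gastruloids at 48 h (1.75 ± 0.12, adjusted p = 1.21e-09). At 96 h it averaged 13.7 CPM in early and 2.04 CPM in control gastruloids (2.71 ± 0.16, adjusted p = 1.10e-10). Of 10 glycerolipid synthesis genes, 4 were higher and 0 lower at 48 h, 1 and 6 at 72 h, and 3 and 6 at 96 h, Lpin1, a phosphatidate phosphatase, leading at 48 h (0.51 ± 0.08, adjusted p = 3.27e-05).

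Counts and FPKM described Fdps very differently. The mean FPKM of a gene over the 18 libraries was set against its mean CPM per kilobase of annotated exon, and this ratio was 0.80 to 2.36 for 31 of the genes and 106 for Fdps. Fdps (chr3:89093588-89101959, minus strand, mm10) averaged 4.16 CPM in early and 7.93 CPM in control gastruloids at 48 h, but 121 FPKM in early and 177 FPKM in control gastruloids. In the GENCODE transcripts 91.4% of its sequence lay in near copies in 6 other genes, at 95% identity or more over at least 100 bases. On FPKM it was lower in early gastruloids at 48 h (-0.54 ± 0.05, adjusted p = 2.14e-07) and higher at 96 h (0.55 ± 0.05, adjusted p = 1.10e-07). On counts the difference at 96 h was 0.16 ± 0.14 and did not pass the test. Acat2, Fdft1 and Acaca also had 65.6%, 54.7% and 64.3% of a transcript in near copies. Of the 32 genes, 11 overlap exons of other genes, 7 of them only genes on the opposite strand. The rest, Fdps, Tm7sf2, Srebf1 and Scd2, overlap a gene on the same strand. That overlap took 26.7% of the exon bases of Fdps (with Gm43738) and 12.1% of those of Tm7sf2 (with Vps51). The strand setting is not given, so the values of all these genes are less certain.

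**Figure D4:**
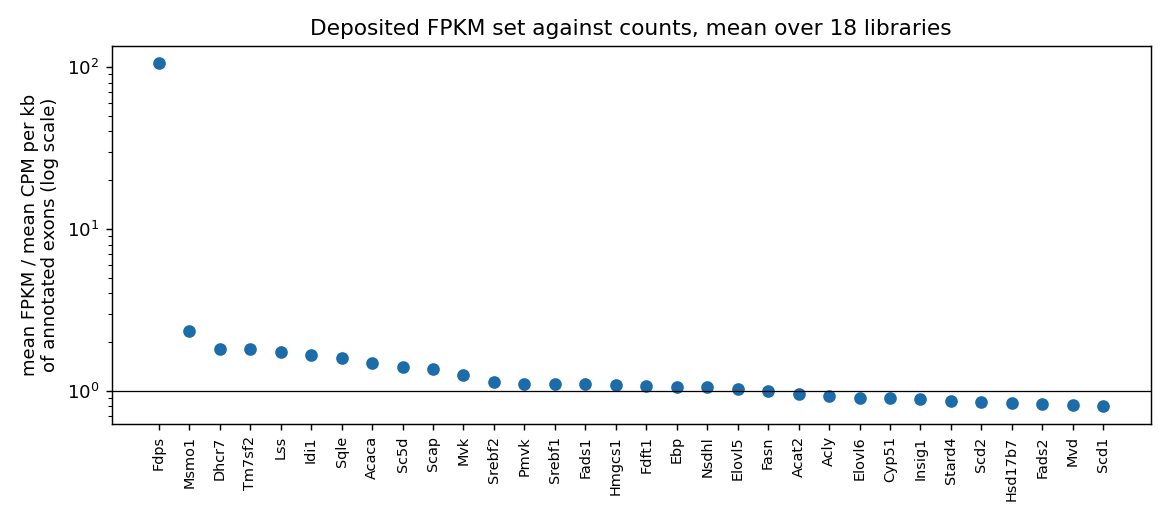
Ratio of the mean deposited FPKM to the mean CPM per kilobase of annotated exon (log y axis) over 18 libraries for each of the 32 genes (x axis), with a line at 1. Fdps stands at 106 while the other genes lie between 0.80 and 2.36.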

How the data were processed

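Messenger RNA-seq of 18 wild-type gastruloid libraries was analysed, 3 in each of 6 groups taken from the labels. The genes and lists were chosen with earlier results of these data known. Gene groups and other lipid lists were written from general knowledge; every one of the 32 genes could be named, with full statistics for up to 8 of lowest adjusted p per comparison and for called genes that moved against the majority.

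The submitters' processing notes name cutadapt 4.0, STAR 2.7.8a, Cufflinks 2.2.1 and the mm10 build. The deposited count table holds raw counts made by the authors, and the deposited FPKM table holds their FPKM values of 55468 genes. How strand and multi-mapped reads were treated in counting is not given in the sources here, so near copies and overlapping genes could take or lose counts.

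Counts were filtered with filterByExpr, scaled by TMM and fitted in edgeR 4.0.16 (R 4.3.3) as 6 group means over the 18 libraries, with 11 two-sided contrasts. The SE is the absolute log2 fold change divided by the square root of F. CPM uses TMM-scaled totals. FPKM was tested with limma 3.58.1. Tables and figures used Python 3.11.15 with pandas 2.3.3 and matplotlib 3.10.9. The fit was tested on simulated data. Alternatives were DESeq2 1.42.0 size factors and Wald test, no filter, 1 CPM in 3 libraries, only the groups compared, a replicate block, FPKM with pseudocounts of 1 and 0.1, and each library left out. The protocol names a pair of preparation codes without assigning libraries, so a preparation batch was not modelled.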

Additional observations from a re-analysis of the deposited data

Results flagged for a closer look

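For 7 of the 32 genes the early-control difference was called in opposite directions at neighbouring ages. This held for 6 genes between 48 and 72 h, where 13.4% of all 16041 genes did the same, and for 2 between 72 and 96 h, against 3.83%. Every one of those 2156 and 615 genes also passed edgeR's quasi-likelihood interaction test, so the interaction values below give the size of each change and are no further evidence for it. Between 48 and 72 h the difference of Ebp moved from above to below 0, by -3.30 ± 0.12 on the log2 scale (adjusted p = 1.95e-13). Scap moved the same way by -1.34 ± 0.09 (adjusted p = 5.99e-10), Scd2 by -1.22 ± 0.06 (adjusted p = 9.09e-12) and Srebf1 by -0.64 ± 0.10 (adjusted p = 5.59e-05). Fdft1 and Sqle moved from below to above 0, by 0.53 ± 0.09 (adjusted p = 7.16e-05) and 0.49 ± 0.06 (adjusted p = 4.96e-06). Between 72 and 96 h Ebp moved back above 0, by 1.29 ± 0.11 (adjusted p = 4.50e-08), and Pmvk moved from below to above 0, by 0.67 ± 0.09 (adjusted p = 2.66e-05). The early and control libraries of neighbouring ages differ both in time since the pulse and in age, and these cannot be told apart here.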

How the results depend on the processing

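Of 3814 refitted values of the 226 called differences, 3614 kept direction and call, 197 kept direction and lost the call, and 3 reversed. The reversals were all Lss in the early step from 48 to 72 h: -0.13 on counts, but 0.0241 on log2(FPKM + 1), 0.0248 on log2(FPKM + 0.1) and 0.0241 on log2(FPKM + 1) over all genes; the cause was not tested. Leaving out 1 library each gave 17 to 19 called genes for early against control at 48 h (20 with all), 15 to 16 at 72 h (17) and 23 to 24 at 96 h (23). The same gave 21 to 24 (24) and 22 to 25 (24) for the control steps, 10 to 12 (15) and 13 to 14 (15) for the early steps, 22 to 25 (23) and 26 to 28 (27) for the pulse-aligned comparisons, and 17 to 20 (17) and 16 to 21 (21) for the interactions. Deviations of same-numbered libraries from their group means correlated at -0.0354 to 0.158, the highest between the controls numbered 3 of 48 and 72 h. Differently numbered libraries were not compared, so these values cannot decide whether replicate numbers pair the samples. With the replicate block 225 of the 226 calls were kept, with 21, 17 and 23 called genes at 48, 72 and 96 h. Without the 3 control libraries numbered 3, the early-control counts were 24, 18 and 26.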
